A study of Caenorhabditis elegans with 2 samples.

Results

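The genes described here are the 8 genes of Caenorhabditis elegans that encode the subunits of the cytosolic chaperonin CCT, cct-1 to cct-8, taken by name from a list and located in the Ensembl WBcel235 annotation. All 8 were found, among 19973 protein-coding genes on the nuclear chromosomes. They were followed through ChIP-seq of the nuclear hormone receptor NHR-43 in 2 biological replicates, which form 1 group with no contrast of conditions. The animals were whole hermaphrodite L3 larvae of strain OP477 (unc-119(tm4063) III; wgIs477), collected 36.5 h after synchronisation by starvation at L1 following bleaching, and the transgene product, NHR-43 tagged at its C-terminus with GFP-FLAG, was precipitated, by the sample description, with an antibody against GFP. The antibody field of the labels reads nhr-43 instead, taken here as the target, and whether untagged NHR-43 was also precipitated cannot be told from the labels. Both replicates carry the transgene and the unc-119 mutation, the transgenic line is a single strain, and the labels do not name the cells that express the tagged protein. Chromatin of all tissues was therefore read together, and a peak in a few cells cannot be told apart from a weaker peak in many.

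CCT, also called TRiC, is a barrel of stacked rings in which each ring holds 1 copy of each subunit. It closes over unfolded proteins with energy from ATP, and actin and tubulin are its best known clients. Prefoldin, a separate complex, hands unfolded actin and tubulin to it. The ring needs all of its subunits, and in mammalian cells the genes for them are known targets of heat shock factors. In C. elegans many messages are trans-spliced, so the annotated 5' end of a gene can lie downstream of where transcription begins.

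Of the 8 genes, 5 (cct-1, cct-2, cct-6, cct-7 and cct-8) had a summit of the thresholded peak list in their promoter window, which ran from 1000 bp before the annotated 5' end to 200 bp past it. The same was true of 2010 of all 19973 protein-coding genes, or 10.1%. The thresholded list is the authors' list after a cut by irreproducible discovery rate (IDR), and its peaks are the highest of the pooled list. Of its 3870 nuclear peaks, 78.1% had a summit of both replicates within 100 bp. No summit of that list lay in the windows of cct-3, cct-4 and cct-5. The count of 5 became 1, cct-2, when each peak was given to the nearest 5' end alone (10.8% of all genes), and to 3, cct-1, cct-2 and cct-8, with the 1944 thresholded peaks of highest signal (5.85% of all genes). The levels were far from even. The signal of cct-1 and cct-8 was among the highest of any promoter, that of cct-2 and cct-7 was near the middle of the thresholded list, and that of cct-6 was close to its lower end.

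The sequences at the summits are printed to show where the heat shock type words described further on lie. Each is read from the RefSeq sequence of WBcel235, plus strand, from 75 bp before to 75 bp after the pooled summit. The cct-6 stretch ends where its neighbour alh-9 begins. Capitals mark words of the heat shock type, a facing pair of the units bound by heat shock factors (GAANNTTC or TTCNNGAA). They are matches of letters only, and whether a heat shock factor binds there was not tested. The first 5 lines are thresholded peaks, at II:8185117-8185267, IV:1094308-1094458, II:8927347-8927497, V:1871915-1872065 and III:5855910-5856017. The sixth is the pooled peak of cct-5 at III:4508498-4508648, which did not reach the thresholded list. The pooled peak of cct-4, which did not reach it either, held neither word within 75 bp of its summit and is not printed.
cct-1: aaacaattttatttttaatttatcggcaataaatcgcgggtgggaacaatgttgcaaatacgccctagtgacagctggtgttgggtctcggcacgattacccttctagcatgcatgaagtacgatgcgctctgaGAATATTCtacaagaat
cct-8: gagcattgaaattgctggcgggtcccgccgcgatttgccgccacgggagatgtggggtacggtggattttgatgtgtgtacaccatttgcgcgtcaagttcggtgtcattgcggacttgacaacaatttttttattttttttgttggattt
cct-2: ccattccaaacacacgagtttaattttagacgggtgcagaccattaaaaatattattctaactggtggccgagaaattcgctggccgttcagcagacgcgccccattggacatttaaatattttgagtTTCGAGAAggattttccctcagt
cct-7: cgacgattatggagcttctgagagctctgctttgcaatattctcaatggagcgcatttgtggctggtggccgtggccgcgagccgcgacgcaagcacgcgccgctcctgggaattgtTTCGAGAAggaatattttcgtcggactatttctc
cct-6: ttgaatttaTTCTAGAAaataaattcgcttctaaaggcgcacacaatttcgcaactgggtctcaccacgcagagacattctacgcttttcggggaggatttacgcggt
cct-5: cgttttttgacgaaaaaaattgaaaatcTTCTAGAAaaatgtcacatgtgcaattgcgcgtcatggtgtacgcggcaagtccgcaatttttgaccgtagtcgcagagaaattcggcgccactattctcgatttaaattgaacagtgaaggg

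cct-1, the alpha subunit gene (WBGene00000377, II:8185443-8187601, plus strand), had the strongest peak of the set. The pooled summit lay 251 bp upstream of the 5' end, between genes, in a peak at II:8185067-8185347 with a signal of 716.87, rank 69 of the 3889 thresholded peaks. The signal is the authors' own value per peak, and its scale belongs to each list, so ranks are used to compare lists. Replicate 1 placed its summit 14 bp from the pooled one, with a signal of 311.8 and rank 62 of 29315 relaxed peaks. Replicate 2 placed its summit 1 bp from the pooled one, with a signal of 368.2 and rank 92 of 30000. Both replicates thus held this site among their 100 highest peaks. A weak pooled summit 986 bp upstream, with a signal of 14.1 and rank 22732, had no partner of replicate 1 or replicate 2 in the window.

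cct-8, the theta subunit gene (WBGene00021934, IV:1087108-1093920, minus strand), was next. Its pooled summit lay 463 bp upstream of the 5' end, between genes, in a peak at IV:1094248-1094494 with a signal of 526.1 and rank 122. The replicates placed the same site at different heights. In replicate 1 the summit was 16 bp from the pooled one with a signal of 86.1 and rank 545, and in replicate 2 it was 2 bp away with a signal of 382.4 and rank 87. The ranks of cct-8 differed 6.26-fold between replicates. Among the 3022 nuclear thresholded peaks that had a summit of both replicates within 100 bp, the median fold between ranks was 1.72, and 5.36% differed by at least as much as cct-8. Among the 200 of those peaks with the highest pooled signal, the median was 1.31 and 3 peaks, cct-8 included, differed as much. The site is therefore listed in both replicates, at a higher place in replicate 2 than in replicate 1.

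**Figure D1:**
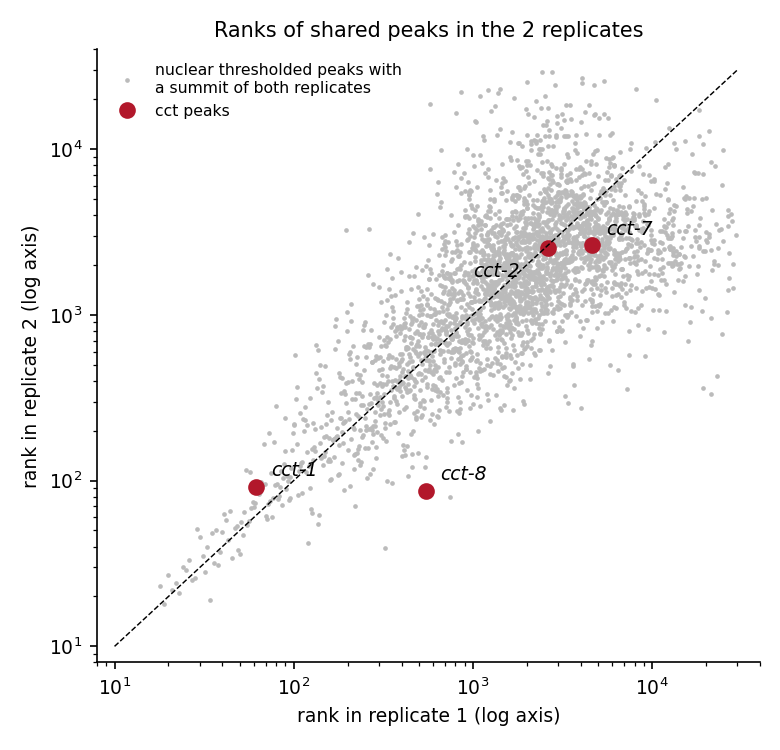
Rank of each peak in replicate 1 (horizontal log axis) against its rank in replicate 2 (vertical log axis), for the 3022 nuclear thresholded peaks with a summit of both replicates within 100 bp (grey) and for the cct peaks among them (red), with equal ranks on the dashed line. cct-1 (62 and 92) and cct-2 (2632 and 2545) sit near the line, cct-7 (4603 and 2639) a little below it, and cct-8 (545 and 87) well below it.

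cct-2 and cct-7 had middling peaks that both replicates listed. For cct-2, the beta subunit gene (WBGene00000378, II:8927741-8929815, plus strand), the pooled summit lay 319 bp upstream, between genes, with a signal of 111.4 and rank 1928. Replicate 1 gave it a signal of 24.6 and rank 2632 at 4 bp from the pooled summit, and replicate 2 gave it 50.6 and rank 2545 at 0 bp. A second, weaker pooled summit of cct-2 lay 117 bp upstream with a signal of 30.8 and rank 9186, and neither replicate listed it. For cct-7, the eta subunit gene (WBGene00020391, V:1872246-1875505, plus strand), the pooled summit lay 256 bp upstream with a signal of 108.8 and rank 1991. Replicate 1 had it at 15.6 and rank 4603, 17 bp away, and replicate 2 at 49.1 and rank 2639, 0 bp away. The cct-7 summit fell within T10B5.13, an annotated noncoding RNA gene at V:1871980-1872075 on the same strand, 10 bp from the 5' end of that gene.

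cct-6, the zeta subunit gene (WBGene00000381, III:5853530-5855687, minus strand), carried the weakest of the thresholded peaks. Its summit lay 298 bp upstream, between genes, at III:5855823-5856146, with a signal of 64.3 and rank 3663. The lowest signal in the thresholded list was 61.4. Replicate 1 had a summit 7 bp away with a signal of 26.7 and rank 2394, and a weak one 949 bp upstream with 5.85 and rank 15805. Replicate 2 listed no summit in the window, and its nearest one, with a signal of 35.9 and rank 3902, lay 548 bp away in the coding sequence of cct-6. Of all nuclear thresholded peaks, 92.5% had a summit of replicate 2 within 100 bp and 84.3% had one of replicate 1. The cct-6 site was thus a thresholded site that only 1 replicate listed.

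The remaining 3 genes had no thresholded summit in their windows, and they differed in the relaxed lists. For cct-5, the epsilon subunit gene (WBGene00000380, III:4499188-4508114, minus strand), the pooled list had a summit 459 bp upstream with a signal of 49.1 and rank 5077, below the last thresholded peak. Replicate 2 had a summit 67 bp from it with a signal of 31.2 and rank 4678, and replicate 1 listed none within 1000 bp of it. cct-4, the delta subunit gene (WBGene00000379, II:8283667-8285711, plus strand), had a pooled summit 353 bp upstream with a signal of 13.3 and rank 23914, against a median signal of 21.1 in the pooled list. Neither replicate listed a summit in the cct-4 window. cct-3, the gamma subunit gene (WBGene00018782, II:2233540-2243539, plus strand), had no summit in its window in any of the 4 lists.

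**Figure D2:**
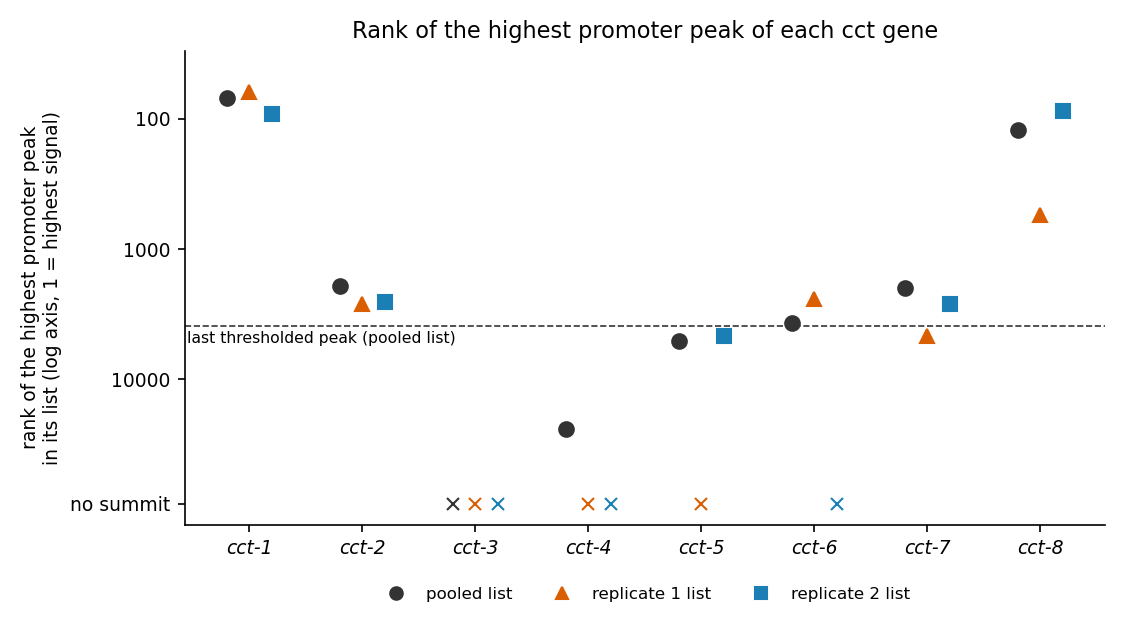
Rank of the highest promoter peak of each cct gene in the pooled list (circles), the replicate 1 list (triangles) and the replicate 2 list (squares), on a log axis with the highest signal at the top; crosses mark lists without a summit in the window, and the dashed line is the rank of the last thresholded peak, 3889. cct-1 and cct-8 stand at the top, cct-2 (1928 to 2632) lies above the line, cct-7 lies above it except in replicate 1 (4603), and cct-3 has no summit in any list.

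By their descriptions the relaxed lists feed the reproducibility analysis and hold background as well as peaks, so a summit there is a weak statement. The pooled relaxed list had a summit in the windows of 7 of 8 cct genes and of 34.8% of all protein-coding genes. Replicate 1 had one in 5 of 8 and in 36.0% of all genes, and replicate 2 in 5 of 8 and in 35.2%. Both replicates had one in 4 of 8, cct-1, cct-2, cct-7 and cct-8, and in 22.6% of all genes. At these 4 genes the replicate summits lay at most 17 bp from the pooled summit.

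Among the 2010 genes with a thresholded promoter summit, 36 (1.79%) had a higher signal than cct-1 and 77 (3.83%) a higher one than cct-8. For cct-2 it was 57.7%, for cct-7 59.5% and for cct-6 95.7%, while the median over the 2010 genes was 128.4. In this order cct-2 and cct-7 were close, with 111.4 and 108.8. cct-2 also stood above cct-7 in replicate 1, 24.6 and 15.6, and in replicate 2, 50.6 and 49.1, and with 2 replicates this order was not tested. Genes next to cct-1 in the order were ints-4, a subunit gene of the Integrator complex that processes small nuclear RNAs, with 728.4, and egg-5, which acts in the change from egg to embryo, with 730.7. Just below it stood drr-2, a relative of translation initiation factors, and set-16, a histone methyltransferase gene, which share a peak of 715.5. Relative to cct-1 these signals differed by 11.5, 13.8 and -1.40, a likeness in 1 pooled list only.

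**Figure D3:**
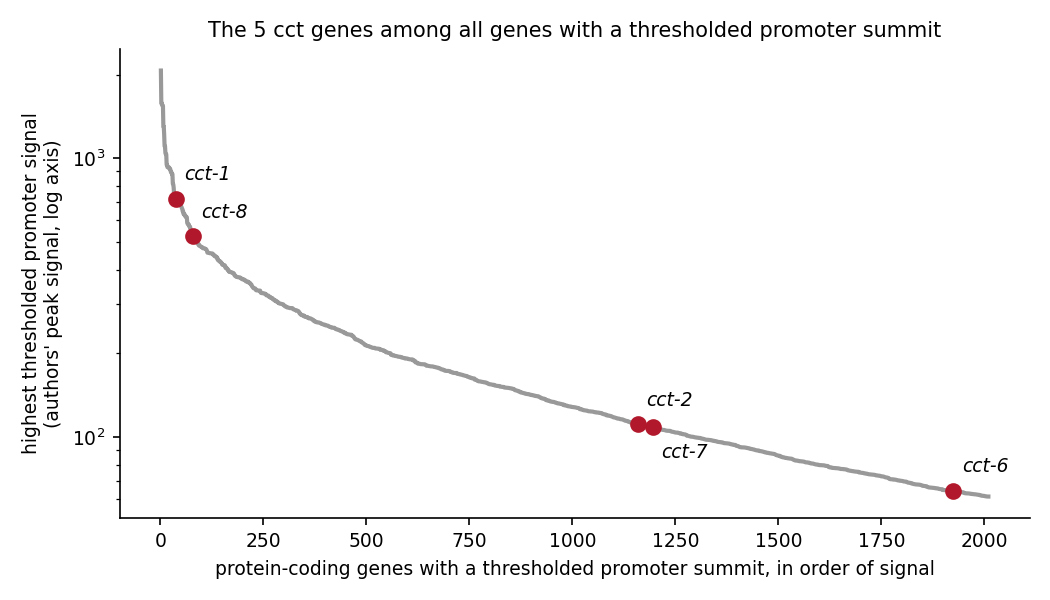
Highest thresholded promoter signal (authors' peak signal, vertical log axis) of the 2010 protein-coding genes that have one, in falling order along the horizontal axis, with the 5 cct genes in red. cct-1 (716.87) and cct-8 (526.1) lie on the steep left end, and cct-2, cct-7 and cct-6 on the long shallow part.

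Every cct gene faced away from its upstream neighbour. For all 8 genes the next protein-coding 5' end upstream belonged to a gene on the other strand, as for 45.9% of all protein-coding genes. For 6 of 8 (all but cct-2 and cct-3) that divergent 5' end lay within 1000 bp, against 17.7% of all genes. Of those 6, 4 (cct-1, cct-6, cct-7 and cct-8) had a thresholded summit, against 21.2% of the 3539 protein-coding genes with such a close divergent partner. The background for this layout was thus higher than the 10.1% of all protein-coding genes.

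A peak between divergent genes belongs to both by the window rule. Of the 5 thresholded summits, 4 lay nearer to the neighbour's 5' end than to that of the cct gene, against 483 of the 2010 genes (24.0%) whose highest thresholded summit lay nearer to another gene. That share covers genes of any layout, of which 749 had a divergent 5' end within 1000 bp, as all 4 of these cct genes had. It is not a like background, and the share among those 749 genes was not computed. The summit of cct-1 was 169 bp from mig-5, a Dishevelled gene of the Wnt pathway, whose 5' end is 420 bp from that of cct-1. The summit of cct-8 was 158 bp from Y55F3AR.2, with 621 bp between the 5' ends. The summit of cct-7 was 183 bp from T10B5.4, with 439 bp between them, and that of cct-6 only 33 bp from alh-9, an aldehyde dehydrogenase gene, with 331 bp between them. cct-2 was the exception, 319 bp from its own summit, while B0457.2 was 871 bp away. This is why only cct-2 kept a peak under the nearest-gene count. Which gene of a pair the site acts on was not tested.

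The weaker pairs had the same layout. The pooled summit of cct-5 was 282 bp from the 5' end of F25F2.1, and that of cct-4 was 106 bp from nst-1, a nucleostemin gene whose product is a nucleolar GTPase. The 5' end of F54A3.6 lay 1070 bp from that of cct-3.

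**Figure D4:**
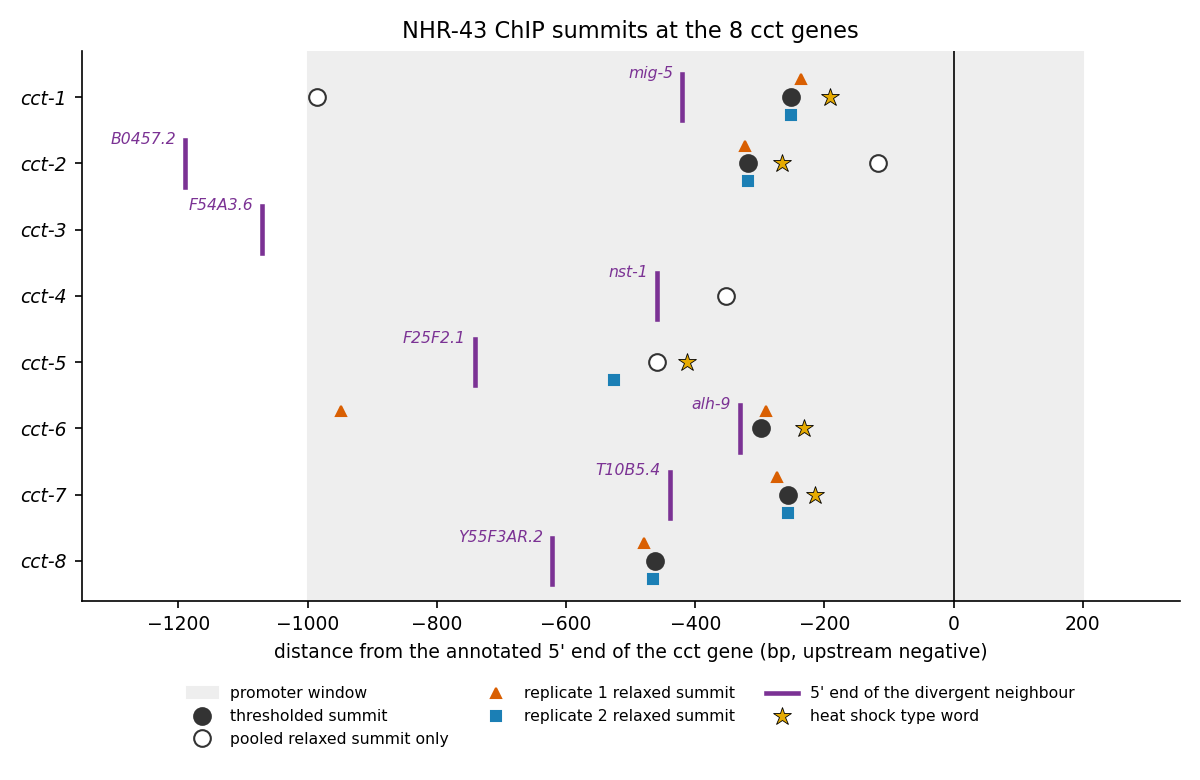
Summits at the 8 cct genes by distance in bp from the annotated 5' end (upstream negative, the shaded band is the window from 1000 bp upstream to 200 bp downstream). Filled circles are thresholded summits, open circles pooled relaxed summits only, triangles replicate 1, squares replicate 2, purple bars the 5' end of the divergent neighbour, and stars the first base of heat shock type words within 75 bp of the summit, which lie between the summit and the cct gene at cct-1, cct-2, cct-5, cct-6 and cct-7.

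A thresholded summit inside the gene, past the promoter window, was found in 1 of the 8, cct-5, and in 4.96% of the 19740 protein-coding genes that reach past their window. In cct-5 it lay within an intron, 4977 bp into the gene, with a signal of 96.6 and rank 2282. That gene spans 8927 bp and held 11 pooled relaxed summits past the window. The highest of replicate 1 in the gene body lay 5385 bp downstream with rank 2110, and the highest of replicate 2 lay 5257 bp downstream with rank 2130. Both lay more than 100 bp from the thresholded summit, so they are not matches to it. Whether either replicate had a weaker summit within 100 bp of it is not given here. In the gene bodies of cct-1, cct-2, cct-4, cct-6 and cct-7 the highest pooled signals ran from 14.1 at cct-4 to 43.8 at cct-6, and cct-3 and cct-8 had no pooled summit there. The pooled list thus had a summit inside 6 of the 8 genes, against 36.8% of all protein-coding genes that reach past their window. This share and the 4.96% cover genes of any length. The cct genes span 2045 bp (cct-4) to 10000 bp (cct-3), and no matching by length was made.

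cct-3 is 10000 bp long by its annotation and held no summit inside in any list. It lay in a stretch without summits that was wider than the gene. Around it the pooled list was empty for 128076 bp, the replicate 2 list for 129797 bp and the replicate 1 list for 32517 bp, while the median distance between neighbouring summits was 1044, 1166 and 1383 bp in the pooled list, replicate 2 and replicate 1. In the pooled list, 34 of 29993 such distances were longer, in replicate 2 18 of 29993, and in replicate 1 343 of 29308. Of the 407 protein-coding genes between 9000 and 11000 bp long, 87 (21.4%) likewise had no relaxed summit of the pooled list or either replicate from 1000 bp upstream to the end of the gene. The empty stretch thus reached well beyond the promoter of cct-3, and whether reads map there was not tested.

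Most of the words searched were absent at all 5 thresholded summits. Within 75 bp of the 5 thresholded summits, on both strands, 0 held GAGAGA, the repeat that 26.8% of all 3870 nuclear thresholded peaks held in the same window. Also 0 of 5 held CTGCGTCTC, which resembles the EOR-1 site (6.74% of all peaks), CCGCCC, an Sp1-type word (7.26%), the nuclear receptor core AGGTCA (5.71%), the HNF4-like CAAAGTCCA (0.233%), the GATA-type TGATAAG (6.30%) and the E-box CACGTG (8.71%). No match says only that these letters are not in these windows. The G+C content of the windows was 41.7% at cct-1, 42.4% at cct-2, 39.1% at cct-6, 54.3% at cct-7 and 47.7% at cct-8, against a median of 43.0% over all 3870 peaks with quartiles of 38.4% and 47.7%.

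The planned word of the heat shock type, GAANNTTC, was the exception, at 1 of the 5 thresholded summits. GAANNTTC was found at cct-1 alone, as GAATATTC, and at 6.15% of all peaks. The reverse arrangement, TTCNNGAA, was looked up after the sequences had been read, and was found at cct-2 and cct-7 as TTCGAGAA and at cct-6 as TTCTAGAA, against 6.85% of all peaks. Either word was present at 4 of the 5 thresholded summits and at 12.1% of all peaks. Because TTCNNGAA was picked after reading these same windows, its count and the joint count cannot be weighed against those shares. The pooled peak of cct-5 also held TTCTAGAA, while those of cct-4 and cct-8 held neither within 75 bp. In all 5 cases the word lay off the summit, on the side of the cct gene. Counted along the plus strand from the summit, its first base was at 59 bp for cct-1, 53 bp for cct-2, 42 bp for cct-7, -66 bp for cct-6 and -47 bp for cct-5. The distances of that base from the 5' end were 192 bp for cct-1, 266 bp for cct-2, 412 bp for cct-5, 232 bp for cct-6 and 214 bp for cct-7. The count depends on the width searched. Within 50 bp of the summit the words were present at 1 of 5, cct-7 (7.34% of all peaks), and within 150 bp at 5 of 5 (25.3%).

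cct-2 and cct-7, which lie on chromosomes II and V and had nearly equal signals, also shared longer words. Both windows hold GTTTCGAGAAGGA, at II:8927473-8927485 and V:1872030-1872042, which contains their TTCGAGAA and occurs at 3 of all 3870 peaks (0.0775%). Both also hold CTGGTGGCCG, which begins 14 bp before the summit of cct-2 and 13 bp before that of cct-7 and occurs at 5 peaks (0.129%). GTTTCGAGAAGGA was the longest word that any pair of the 5 windows shared, and no other pair shared a word of more than 10 bases. Words of 10 bases as rare as CTGGTGGCCG were also shared by other pairs, ACATTGTTCC by cct-1 and cct-6 (2 peaks, 0.0517%; in cct-6 it lies inside alh-9) and AATATTCTCA by cct-1 and cct-7 (4 peaks, 0.103%). The pairs cct-1 and cct-2, and cct-1 and cct-8, each shared an A+T-only word of that length. These words were found by comparing all windows, which held 694 distinct words of 13 bases and 701 of 10 bases, and no chance level was computed. Each count of peaks given for a shared word includes the 2 cct peaks of the pair itself.

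The genes that work with the chaperonin differed in the same list. Of the 6 prefoldin genes, 5 had a thresholded promoter summit: pfd-5 (signal 238.7, rank 614), pfd-1 (224.0, rank 675), pfd-4 (152.2, rank 1250), pfd-3 (106.4, rank 2035) and pfd-6 (95.5, rank 2321). None of these reached the signal of cct-1 or cct-8. At pfd-1 and pfd-4 the summit was nearer to another gene's 5' end. Of the 5 actin genes, whose products are clients, 0 had one. In the pooled relaxed list all 5 had a summit, against 34.8% of all genes. So did 5 of the 6 prefoldin genes and 10 of the 16 tubulin genes. The highest actin signals ran from 23.4 at act-1 to 33.5 at act-5, against a median of 21.1 in that list. Of the actin genes, 4 of 5 had a summit in both replicates, against 22.6% of all genes. For prefoldin that was 5 of 6. Of the 16 tubulin genes, 5 had a summit in both replicates and 2 had a thresholded one, tba-2, an alpha-tubulin gene, with 422.6 and rank 209, and tbg-1, the gamma-tubulin gene, with 190.5 and rank 882 at 815 bp upstream and nearer to another gene's 5' end. hsp-60, the mitochondrial chaperonin gene and the distant relative of CCT, had 949.2 and rank 49, with the summit 596 bp upstream and nearer to another gene's 5' end. Set beside 10.1% of all genes, these are counts of small lists and were not tested against each other.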

How the data were processed

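NHR-43 ChIP-seq peaks were deposited by the authors as narrowPeak lists on the ce11 and ce10 builds. Per the deposited file descriptions, the relaxed lists were made from the alignments of each replicate or of both pooled, with 1 control file, and the thresholded list was derived from them by IDR. Aligner, peak caller and IDR threshold: not given in the sources used here. Read depth is unknown, and signals therefore carry no interval. The signal of each peak is the authors' deposited value. All 3889 thresholded peaks were also the top 3889 of the pooled list by signal. The ce10 lists and the control libraries were not used here.

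The ce11 lists were joined with the Ensembl release 115 annotation and the RefSeq sequence of WBcel235. Summits were counted from 1. Peaks were ranked by signal within a list, mitochondrial ones included. Words were counted on both strands. The counting was checked on simulated data with planted summits and words. Python 3.11.15, numpy 2.4.6 and matplotlib 3.10.9 were used. No test was run: the 2 samples form 1 group, and counts stand beside the same share over all protein-coding genes.

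The members and lists were chosen with earlier results of these data known. Named are the 8 cct genes, their upstream neighbours or genes sharing their peak, listed partners with a thresholded summit (the lowest and highest actin gene were added after seeing the values), and the genes next to cct-1 in signal. TTCNNGAA, shared words, gene bodies and the empty stretch at cct-3 were added after the values were seen.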

Additional observations from a re-analysis of the deposited data

How the results depend on the processing

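The count of 5 cct genes with a thresholded promoter summit held with windows of 500 bp up and 100 bp down or 2000 bp up and 200 bp down, with the 5' ends of all transcripts and with overlap of the whole peak. It was 1 with the nearest 5' end within 2000 bp (cct-2) and 3 with the 1944 peaks of highest signal (cct-1, cct-2 and cct-8), which left 1169 protein-coding genes. Under the nearest rule the count of all protein-coding genes was 2166 (10.8%), against 2010 (10.1%) with the window, so it did not fall as the cct count did. Taking only the highest peaks can lower a count but cannot raise it. With the 3889 highest peaks of 1 replicate alone the cct count was 4 to 4, without cct-7 in replicate 1 and without cct-6 in replicate 2, and the count of all genes was 1901 to 1959. Summits in both replicates were found at 4 cct genes under each distance tried, and at 5 with the window reaching 2000 bp upstream. GAANNTTC was present at 0 of 5 within 50 bp and at 3 within 150 bp, TTCNNGAA at 1 within 50 bp, and either at 1 within 50 bp; the other 7 words stayed at 0. No paired analysis was possible because there is only 1 group. Read depth is unknown, and so is the smallest signal that each replicate could show. Presence in a list is all that the weaker sites show.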
